A study of Mus musculus with 3 samples.

Results

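The barcodes described here were taken from a single-cell library of a sterile mouse testis by the RNA of 6 genes that mark pericytes, the contractile cells wrapped around capillaries. They number 429 of the 13662 barcodes kept in the KO testis library (3.14%, exact binomial 95% interval 2.85 to 3.45%), out of 17371 kept barcodes in the whole series. A barcode was kept with at least 500 UMIs (unique molecular identifiers, 1 per captured transcript), at least 200 genes and at most 20% mitochondrially encoded UMIs. It was selected when at least 2 of Rgs5, Cspg4, Notch3, Kcnj8, Abcc9 and Higd1b were detected with 3 or more UMIs in sum. The 6 Leydig cell genes had to stay under 0.5% of its UMIs, the C1q genes of macrophages under 0.1%, and fewer than 2 of the endothelial genes Pecam1, Cdh5, Kdr and Tie1 could be detected. The marker condition was met by 492 barcodes, of which the Leydig limit left out 37, the C1q limit 21 and the endothelial limit 5.

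The KO testis cells were from an adult goGermline mouse knocked out for Tsc22d3, a line used as sterile hosts, after dissociation by a published method. Per the labels it is a dissociated adult testis, and nothing says that more than 1 animal was used. The other libraries were cauda epididymis aspirates, from a Tsc22d3-KO mouse of the same line and from a Tsc22d3-KO chimera (Pax7-nGFP iPS x goGermline) complemented with mouse induced pluripotent stem cells. All hosts therefore carry the knockout, and no wild-type testis was analysed here. Each group is 1 library, so levels describe that library alone, no test of conditions was run, and every interval covers counting error only. CPM is the count of a gene scaled to 1000000 UMIs of the class. The same rule selected 0 of 3525 kept barcodes of the KO cauda, which allows up to 0.0851%, and 0 of 184 of the chimera cauda, which allows up to 1.63%. Of the 429 selected barcode sequences, 26 also stood in the barcode list of the chimera cauda, which holds 301167 barcodes. In the list of the KO cauda, which holds 3937, 0 did. The share over all kept barcodes of the KO testis was not computed, so nothing is read from these counts. Tsc22d3 itself stood at 6.05 CPM over the KO testis library, 10.8 CPM over the KO cauda and 22.8 CPM over the chimera cauda, and whether its 3′ tag lies in the deleted part was not tested.

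Pericytes share the basement membrane of the capillary with its endothelium, are drawn to it by endothelial PDGF-B acting on the receptor PDGFRB, and are held there by Notch and angiopoietin signals. They set capillary width through actin and myosin, and their tone is lowered when an ATP-sensitive potassium (KATP) channel opens. In the testis they lie in the interstitium beside arteriolar smooth muscle, while a separate contractile cell, the peritubular myoid cell, sheathes the seminiferous tubule. These cell types share many transcripts.

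Kcnj8 encodes Kir6.1, the pore of the vascular KATP channel, and Abcc9 encodes SUR2, its regulatory subunit. On GRCm38 they are neighbours on the minus strand, with Kcnj8 at chromosome 6, 142564837 to 142571614 and Abcc9 at chromosome 6, 142587862 to 142702315, 16.2 kilobases apart. Both were in the selection, and 129 of the 429 barcodes carried UMIs of both, 154 of Abcc9 alone, 23 of Kcnj8 alone and 123 of neither. Their RefSeq promoters are shown because both subunits of 1 channel were highest in the same cluster. All 6 rule markers were highest in that cluster, so this is not particular to the pair. The windows run in GRCm38.p6 from 250 bases before to 50 after the start. Capitals mark TGGGAA, the core that the Notch effector RBPJ binds. The Kcnj8 window is chr6:142571565-142571864 and the Abcc9 window chr6:142702225-142702524, both read 5′ to 3′ on the minus strand.
Kcnj8: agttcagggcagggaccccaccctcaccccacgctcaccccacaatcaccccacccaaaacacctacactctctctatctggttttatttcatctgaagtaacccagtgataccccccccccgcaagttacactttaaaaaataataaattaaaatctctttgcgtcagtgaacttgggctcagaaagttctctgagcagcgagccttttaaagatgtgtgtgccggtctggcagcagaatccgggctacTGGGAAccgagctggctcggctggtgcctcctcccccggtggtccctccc
Abcc9: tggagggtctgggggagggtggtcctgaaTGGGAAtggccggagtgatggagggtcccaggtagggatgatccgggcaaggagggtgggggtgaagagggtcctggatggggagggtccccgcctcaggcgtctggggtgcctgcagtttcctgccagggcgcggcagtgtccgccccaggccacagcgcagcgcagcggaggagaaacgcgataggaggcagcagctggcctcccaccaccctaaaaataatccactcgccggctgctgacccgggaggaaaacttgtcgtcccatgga
Each window held the motif once, searched as TGGGAA and as its reverse complement TTCCCA, and 25.6% of 32851 promoter windows of this length hold it. The motif and the genes were chosen after their values were seen, and a match is a description only. A second neighbouring pair, Rgs5 at chromosome 1, 169655501 to 169695813 and Rgs4 at chromosome 1, 169741477 to 169747642, lies 45.7 kilobases apart on opposite strands. Both encode regulators that shorten G protein signals. Rgs5 was in the rule and Rgs4 was not, and 204 selected barcodes carried both, 35 Rgs5 alone, 36 Rgs4 alone and 154 neither. The motif's letters are in neither of their windows, chr1:169655251-169655550 on the plus strand and chr1:169747593-169747892 on the minus strand.
Rgs5: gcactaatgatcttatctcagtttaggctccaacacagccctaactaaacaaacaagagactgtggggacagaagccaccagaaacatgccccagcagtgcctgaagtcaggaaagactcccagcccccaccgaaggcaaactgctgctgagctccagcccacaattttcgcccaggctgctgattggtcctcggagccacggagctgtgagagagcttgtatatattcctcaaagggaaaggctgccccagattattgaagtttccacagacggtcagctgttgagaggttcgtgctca
Rgs4: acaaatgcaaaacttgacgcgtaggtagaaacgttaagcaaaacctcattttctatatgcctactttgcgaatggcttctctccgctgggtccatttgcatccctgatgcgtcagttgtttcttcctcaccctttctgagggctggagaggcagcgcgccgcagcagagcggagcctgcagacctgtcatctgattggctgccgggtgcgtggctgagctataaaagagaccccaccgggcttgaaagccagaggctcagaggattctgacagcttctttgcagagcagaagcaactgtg

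The selected barcodes held 2106136 UMIs, with 646 to 20822 and a median of 4656 per barcode, a median of 2073 genes and a median mitochondrial share of 7.02%. They were not alike in how much of the rule they met. A total of 185 carried only 2 of the 6 markers, 93 carried 3, 48 carried 4, 41 carried 5 and 62 carried all 6. The most frequent combination was Cspg4 with Abcc9 and no other marker, in 96 barcodes. Cspg4, the NG2 proteoglycan of pericytes and other perivascular cells, was found in 317 barcodes, Abcc9 in 283, Notch3, the Notch receptor of mural cells, in 244, Rgs5 in 239, Higd1b, a mitochondrial membrane protein, in 183 and Kcnj8 in 152. These counts follow from the selection and are given as a description. The 133 barcodes just inside the threshold, with exactly 3 marker UMIs, held 41.4 CPM of Pdgfrb and 6885 CPM of Acta2, and the 222 just outside, with 2 markers and 2 UMIs, held 41.2 CPM of Pdgfrb and 4632 CPM of Acta2.

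The label pericyte held for a portion of the selection only. The selected barcodes were grouped again by their other genes, leaving out all 19 genes of the rule, which gave 4 clusters of 136, 124, 116 and 53 barcodes. The cluster of 124 was led by Col5a3, Adra2a, Hsd11b1, Vtn and Colec11 and is called pericyte-like, since Vtn and Colec11 were among the markers listed for pericytes outside the rule. It held 112 of the 151 barcodes with 4 or more rule markers and 3 of the 185 with 2. Genes of the rule had no part in making the clusters, while the 2000 most variable of the other genes had, so all values by cluster are a description. In the pericyte-like cluster Rgs5 stood at 6391 CPM, Higd1b at 1614, Abcc9 at 1612, Kcnj8 at 927, Notch3 at 812 and Cspg4 at 356 CPM.

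**Figure D1:**
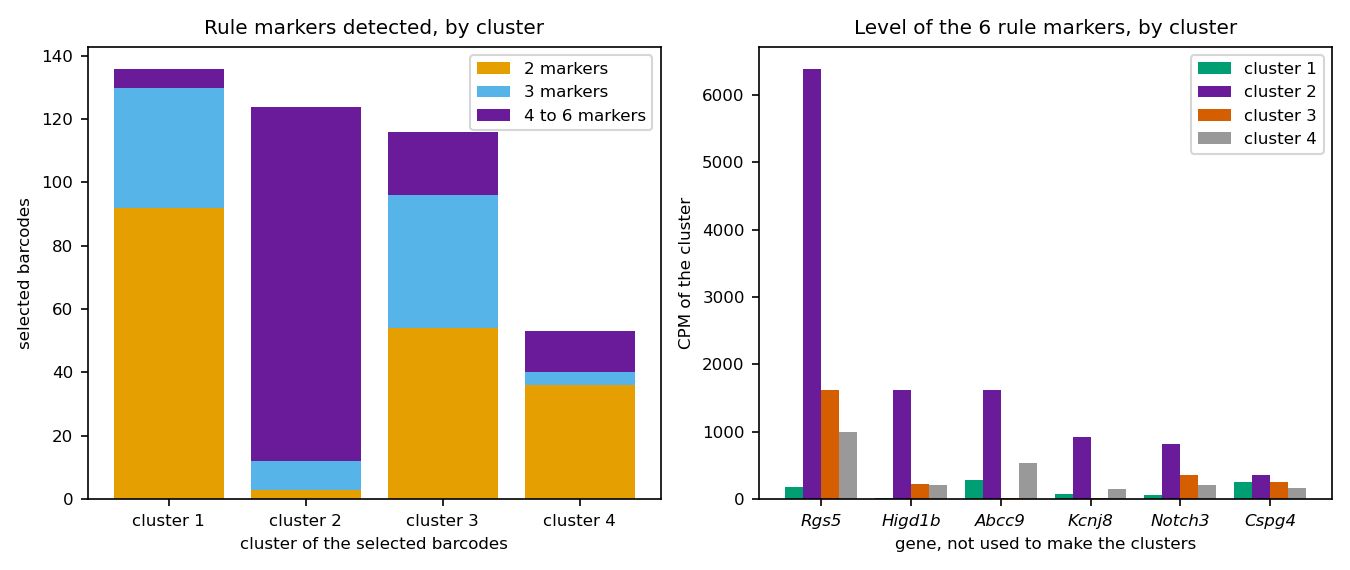
Left, the number of selected barcodes in each of 4 clusters made without the rule's genes, split by how many of the 6 rule markers were detected. Right, the CPM of each rule marker in each cluster. Cluster 2, the pericyte-like one, holds 112 of the 151 barcodes with 4 to 6 markers and the highest bar of every marker.

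The cluster of 136 was led by Hhip, Gpld1, Camk1d, Rbp4, Prkcb and Cdh11 and held 92 of the barcodes with 2 markers. Its Rgs5 was 182 CPM, its Higd1b 13.9 CPM and its Abcc9 289 CPM. When all kept barcodes of the library were clustered, again without the rule's genes, 125 of these 136 fell into a cluster led by Hhip, Tnnt2 and Rbp4 that also held 1436 of the 1552 barcodes classed as myoid or smooth muscle. The cluster of 116 was led by Slc22a3, Tcap, Sncg, Susd5 and Rergl, beside globins that came almost wholly from 1 barcode. It had Rgs5 at 1614 CPM and Notch3 at 354 CPM, but Kcnj8 at 14.4 CPM and Abcc9 at 12.6 CPM. The last, of 53, was a mixture led by Mki67, Top2a, Cxcl14, Prc1 and Clec3b, and 22 of its barcodes were among those with the highest doublet scores, against 6 of 124, 12 of 136 and 8 of 116 in the other clusters.

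In the clustering of the whole library, 258 of the 429 (60.1%) lay in 1 cluster of 406 barcodes led by Rergl, Sncg, Olfr558 and Map3k7cl, and 145 of the 151 with 4 or more markers were among them. That cluster held 124 of 124 pericyte-like barcodes and 115 of the 116 of the Slc22a3 cluster, so at this resolution the pericyte-like cells and the strongly contractile ones were not separated. It also held 100 barcodes of the myoid and smooth muscle class. The comparisons that follow give the selected barcodes as a whole and the 151 with 4 or more markers, a split that was chosen after the values were seen. The number of markers and the comparison classes both depend on the rule, so folds between them describe these barcodes and test nothing. Depth was not higher with more markers: the median was 4853 UMIs with 2 markers, 4676 with 3 and 4014 with 4 or more.

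The 4 classes used for comparison came from the same library, and none of their barcodes met the marker condition. Myoid and smooth muscle barcodes (1552, median 4204 UMIs) were chosen on Acta2, Myh11, Tagln, Cnn1 and Actg2, fibroblasts (1433, 4221 UMIs) on Pdgfra, Dcn, Lum, Col1a1 and Dpt, endothelial barcodes (120, 9316 UMIs) on Pecam1, Cdh5, Kdr and Tie1, and macrophages (2265, 5627 UMIs) on the C1q genes. Higher and lower are used for a gene at least 2-fold apart with at least 20 CPM in the higher class, and folds carry exact conditional binomial 95% intervals. Shares of all genes, given as background, are of the genes that reached 20 CPM in either class compared. Counts within a list are out of every listed gene outside the rule, so the bases differ.

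Of the 20 listed pericyte markers outside the rule, 18 were higher in the selected barcodes than in the 13233 other kept barcodes of the library. The rule used that contrast, so nothing is read from the count, beside which 1218 of 7494 genes (16.3%) were higher and 820 (10.9%) lower. Against myoid and smooth muscle barcodes 12 of the 20 were higher and 0 lower, where 505 of 7092 genes were higher (7.12%) and 152 lower (2.14%). With 4 or more markers it was 15 higher and 0 lower, against a background of 940 of 7457 genes higher (12.6%) and 628 lower (8.42%). The list's median log2 fold was 2.78 for all selected barcodes and 3.81 with 4 or more markers, where the median of all measured genes was 0.08 and 0.21.

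Pdgfrb (ENSMUSG00000024620, chromosome 18, 61045150 to 61085061), the receptor by which pericytes are recruited, was at 68.3 CPM in barcodes with 2 markers, 186 with 3 and 1004 with 4 or more, against 41.4 CPM in myoid, 57.3 in fibroblast, 3.45 in macrophage and 0 CPM in endothelial barcodes. With 4 or more markers it was 14.7-fold higher (11.4 to 19.3) than with 2 and 24.3-fold higher (21.1 to 28) than in myoid barcodes. After thinning each barcode to 1000 UMIs, 59.3% of those with 4 or more markers carried a Pdgfrb UMI, 8.11% of those with 2, 4.52% of myoid barcodes and 0.403% of macrophages, which should lack it. Unthinned, the shares were 91.4%, 24.3%, 15.7% and 1.85%. Barcodes with 2 markers thus stood close to the myoid class in this receptor and far from those with 4 or more.

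Vtn (ENSMUSG00000017344, chromosome 11, 78499091 to 78502324), vitronectin, an adhesive protein that brain pericytes are known to secrete, was 14.7, 29.9 and 562 CPM with 2, 3 and 4 or more markers, against 0.75 CPM in myoid and 63.4 CPM in fibroblast barcodes. Colec11, a secreted collectin of the lectin pathway, followed the same order with 35.7, 66.1 and 654 CPM, against 25 in myoid barcodes. Steap4, a metalloreductase, was 46.2, 64 and 511 CPM, against 51.1 in myoid barcodes. In these 3 genes the larger difference lay between 3 and 4 or more markers. Rgs4 was 159.6, 292 and 896 CPM, against 38.1 in myoid and 2.47 in macrophage barcodes. Cd248, or endosialin, was 42, 32 and 263 CPM, against 24.3 in myoid and 135 in fibroblast barcodes, which also use it. Nes, the intermediate filament nestin, reached 89 CPM with 4 or more markers, against 4.5 CPM in myoid barcodes.

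Some other listed markers differed by less than 2-fold between 4 or more markers and 2. Mcam, the adhesion molecule CD146, was 150.2, 279.5 and 169 CPM with 2, 3 and 4 or more markers, against 120.4 in myoid barcodes, and was highest in the Slc22a3 cluster at 416 CPM. Des, the muscle filament desmin, was 554, 687 and 728 CPM, against 355 CPM, and Ednra, the endothelin A receptor, 219.5, 171 and 203 CPM, against 247 CPM. Foxs1, a forkhead factor of perivascular cells, was 142 CPM with 4 or more markers and 93.5 CPM with 2, against 151 in myoid barcodes.

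**Figure D2:**
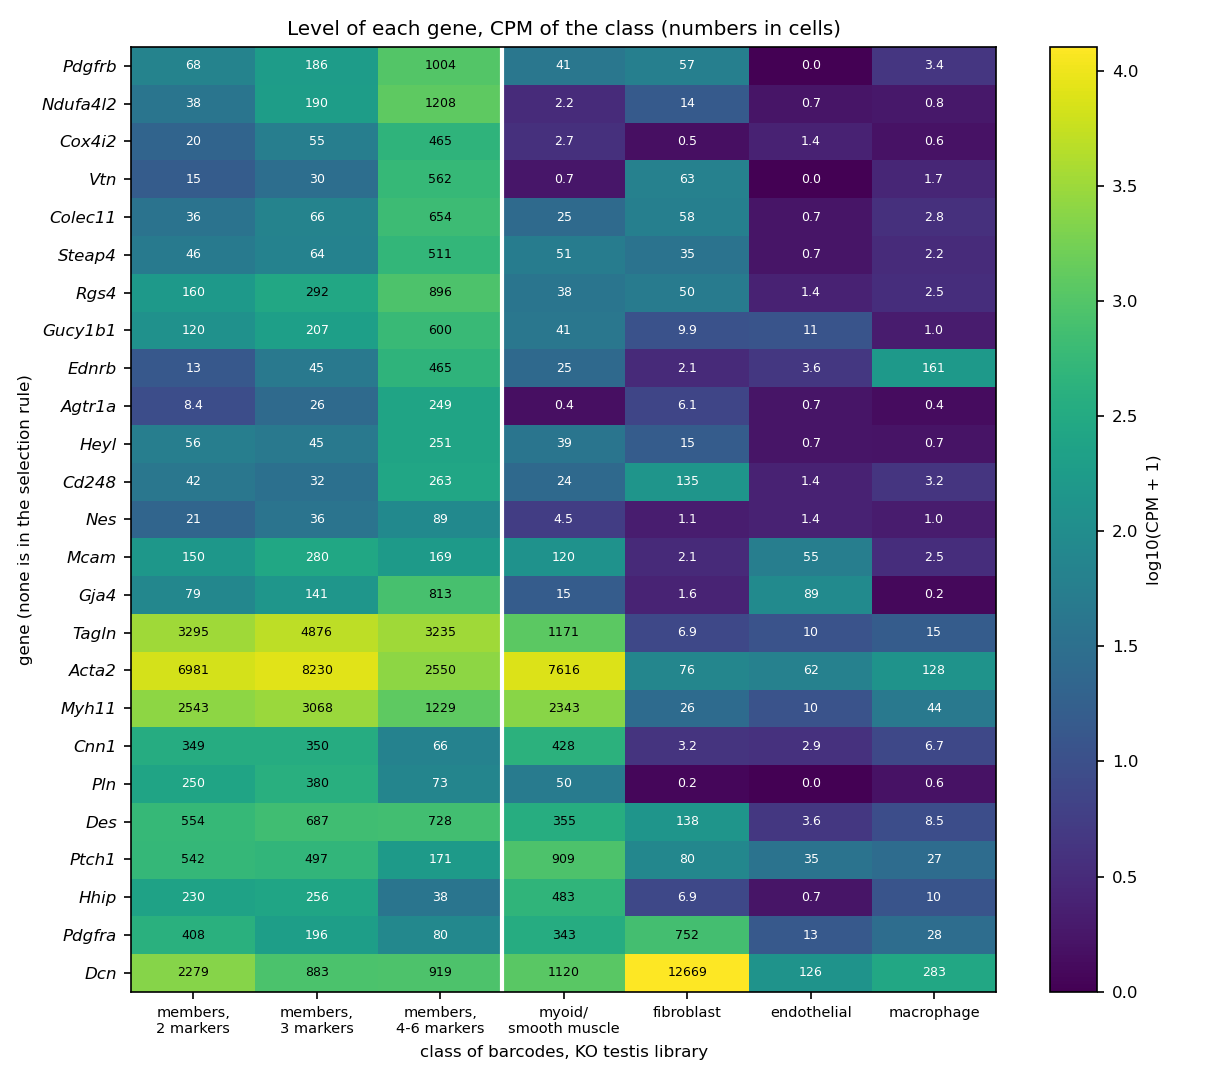
Level of 25 genes outside the rule, in CPM of each class (numbers) and as log10(CPM + 1) (colour), for the selected barcodes with 2, 3 and 4 to 6 rule markers and for 4 other classes of the KO testis library. Pdgfrb, Ndufa4l2 and Vtn are brightest with 4 to 6 markers, while Acta2, Myh11 and Cnn1 with 2 markers lie near the myoid class.

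Alternative forms of a few mitochondrial proteins differed with the number of markers. Some subunits of the respiratory chain have alternative forms that are known from lung, vessels and low oxygen, and 3 pairs were followed as the share that the alternative form takes of the UMIs of its pair. Ndufa4l2 (ENSMUSG00000040280, chromosome 10, 127514967 to 127517154) is the alternative to Ndufa4 (chromosome 6, 11900292 to 11907497), and took 5.67% (4 to 7.76%) of the pair with 2 markers, 22% (18.1 to 26.4%) with 3 and 79.2% (76.6 to 81.7%) with 4 or more, against 0.297% (0.166 to 0.489%) in myoid, 2.19% (1.75 to 2.69%) in fibroblast and 0.0911% (0.00231 to 0.506%) in endothelial barcodes. The usual form was lower than in myoid barcodes where the alternative was high. Ndufa4 stood at 317 CPM with 4 or more markers and 629 CPM with 2, against 755 in myoid barcodes, while Ndufa4l2 stood at 1208 and 37.8 CPM, against 2.25. Ndufa4l2 was 32-fold higher (22.9 to 45.9) with 4 or more markers than with 2, and Ndufa4 was 2.38-fold lower (2.08 to 2.74) than in myoid barcodes. In the pericyte-like cluster, from whose making these genes were not left out, Ndufa4l2 and Ndufa4 were 1616 and 203 CPM.

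Cox4i2 (ENSMUSG00000009876, chromosome 2, 152754173 to 152765037), the alternative subunit 4 of cytochrome oxidase, took 1.58% (0.952 to 2.45%), 4.09% (2.69 to 5.93%) and 27.5% (24.9 to 30.1%) of its pair with 2, 3 and 4 or more markers, against 0.211% (0.125 to 0.333%) in myoid barcodes. Here the usual form did not pass the size rule, with 1229 CPM of Cox4i1 with 4 or more markers and 1246 with 2, against 1277 in myoid barcodes. Higd1b, a rule gene, took 92% (90.1 to 93.7%) of its pair with Higd1a with 4 or more markers, as a description, against 1.67% (0.866 to 2.9%) in myoid barcodes. Cox8a and Cox6a1, further cytochrome oxidase subunits, did not pass the size rule, Cox8a being 1401 CPM with 4 or more markers and 1257 with 2, and Cox6a1 394 and 408 CPM. Of the 17 listed genes of mitochondrial isoforms and energy metabolism outside the rule, 11 reached 20 CPM, and 3 were higher and 1 lower with 4 or more markers than in myoid barcodes (12.6% and 8.42% of all genes). Against 2 markers 2 were higher and 0 lower (11.1% and 8.11% of all genes), and the list's median log2 fold was -0.08, against 0.06 over all genes. By its median the list as a whole lay near the background, and Ndufa4l2 and Cox4i2 were the 2 that were higher. Epas1, which encodes a hypoxia-inducible factor, was 549 CPM with 4 or more markers and 119.7 CPM with 2, 4.58-fold higher (3.71 to 5.7), while its relative Hif1a was 87.5 and 104 CPM.

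**Figure D3:**
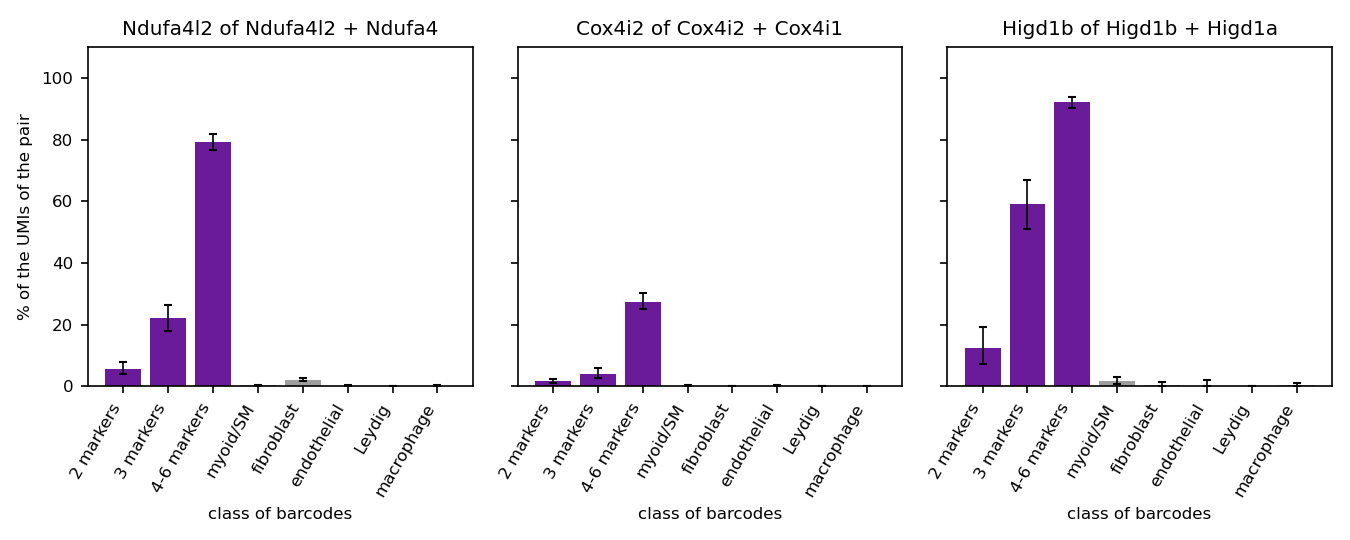
Share of the alternative form among the UMIs of each pair, in percent, for selected barcodes by number of rule markers (purple) and 5 other classes (grey), with exact binomial 95% intervals. Ndufa4l2 takes 79.2% of its pair with 4 to 6 markers, against 0.297% in the myoid class, and Cox4i2 27.5%, against 0.211%. Higd1b is in the rule.

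Several contractile genes were lower with many markers. All 24 listed genes of the contractile apparatus were higher in the selected barcodes than in the rest of the library, a contrast from which nothing is read. Against myoid and smooth muscle barcodes, which were chosen on 5 of these genes, 5 were higher and 0 lower in all selected barcodes, and 2 were higher and 6 lower with 4 or more markers (12.6% and 8.42% of all genes). Between 4 or more markers and 2, 0 were higher and 9 lower, where 832 of 7488 genes were higher (11.1%) and 607 lower (8.11%). The summed level of the 24 was 34659 CPM with 2 markers, 43799.5 with 3 and 23068 with 4 or more, against 31643 in myoid barcodes. Acta2, smooth muscle actin, was 6981, 8229.9 and 2550.4 CPM, and with 4 or more markers 2.74-fold lower (2.6 to 2.89) than with 2. Cnn1, calponin, was 349, 349.9 and 65.7 CPM, against 428 in myoid barcodes. The decrease was not uniform over the contractile genes. After thinning as for Pdgfrb, Tagln was in 72% of barcodes with 4 or more markers, 44.3% with 2 and 39.2% of myoid barcodes. Acta2 went the other way, with 31.3% and 80%, and so did Myh11, with 45.3% and 74.1%, for 4 or more markers and 2.

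Between the clusters the differences were larger. The Slc22a3 cluster summed 68663 CPM over the 24 genes, the Hhip cluster 28183 and the pericyte-like cluster 16089 CPM. Pln, phospholamban, which restrains the calcium pump of the reticulum, was 795 CPM in the Slc22a3 cluster, 4.17 in the Hhip cluster and at 0 UMIs in the pericyte-like cluster. Tagln, transgelin, was 10648, 571 and 2160.5 CPM in the same order of clusters, and Igfbp5, a secreted binder of insulin-like growth factors, 1069.8, 0 and 69.1 CPM. Cald1, caldesmon, varied less, with 3495, 1917 and 2908 CPM. Per barcode, the 24 genes took 0.0927 to 11.8% of the UMIs over all 429, with a median of 2.99% with 2 markers, 3.55% with 3 and 1.52% with 4 or more, against 2.87% in myoid barcodes.

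**Figure D4:**
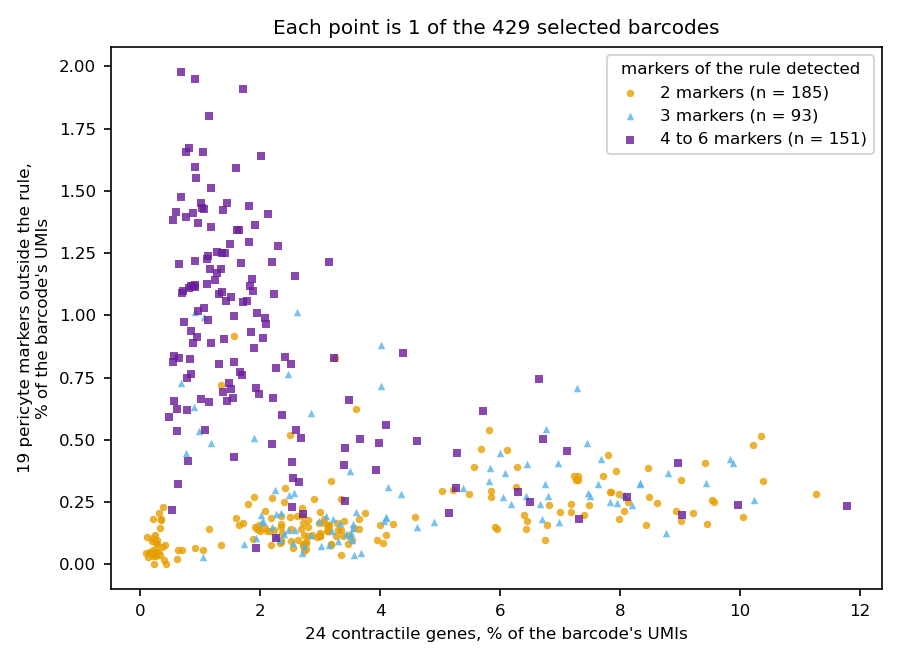
Each point is 1 of the 429 selected barcodes, placed by the share of its UMIs in the 24 contractile genes (x, percent) and in the 19 listed pericyte markers outside the rule that are not contractile genes (y, percent), with colour and shape for the number of rule markers detected. Barcodes with 4 to 6 markers lie mostly at low x and high y (medians 1.52% and 0.914%), and those with 2 markers mostly below 0.5% on y (median 0.157%), spread along x.

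The 3 genes that follow are induced by hedgehog and were picked after their values were seen, with no list of their own to count. Hhip (chromosome 8, 79965851 to 80058006) and Ptch1 (chromosome 13, 63508328 to 63573598), a decoy and a receptor of hedgehog, were 37.9 and 171 CPM with 4 or more markers and 230.0 and 542 CPM with 2, against 483 and 909 CPM in myoid barcodes. With 4 or more markers Hhip was 6.06-fold lower (4.03 to 9.49) and Ptch1 3.17-fold lower (2.59 to 3.91) than with 2. The hedgehog target Gli1 was 13.1 CPM with 4 or more markers and 42 CPM with 2, against 68.5. Among the genes most below the myoid class with 4 or more markers were Sct, the hormone secretin, with 84.6 against 1285 CPM, Tnnt1, a troponin, with 10.2 against 215 CPM, and Rbp4, a retinol carrier, with 17.5 against 199 CPM. Col4a4, a collagen IV chain, was 465 CPM with 4 or more markers, 1239 with 2 and 2170.2 CPM in the Hhip cluster, against 1830.3 in myoid barcodes.

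Receptors and second messengers that set vascular tone were next. Of the 36 listed vasoactive receptors and cyclic nucleotide genes, 12 were higher and 0 lower in the selected barcodes than in myoid ones (7.12% and 2.14% of all genes). With 4 or more markers 20 reached 20 CPM, and 14 were higher and 2 lower (12.6% and 8.42% of all genes). Agtr1a, the angiotensin II receptor, was 249 CPM with 4 or more markers and 8.4 with 2, against 0.45 CPM (3 UMIs) in myoid barcodes. Ednrb, the endothelin B receptor, was 465 and 12.6 CPM, against 24.6, and was 36.9-fold higher (20.8 to 72.2) with 4 or more markers than with 2. Adra2a, an adrenergic receptor, was 89 CPM with 4 or more markers and 0 CPM with 2, and had 0 UMIs in myoid barcodes. All 3 receptors were higher in barcodes with 4 or more markers than in those with 2. In that comparison 10 of the 36 listed genes were higher and 2 lower (11.1% and 8.11% of all genes). The list's median log2 fold was 0.12, against 0.06 over all genes. Ramp1, a partner of the receptor for the dilator peptide CGRP, was highest elsewhere, with 8.64 CPM in the pericyte-like cluster and 284 in the Slc22a3 cluster.

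Gucy1a1 and Gucy1b1, the subunits of the nitric oxide receptor guanylyl cyclase, were 814 and 599.7 CPM with 4 or more markers and 404 and 119.7 with 2, against 305 and 41.2 in myoid barcodes. With 4 or more markers the beta subunit was 14.5-fold higher (12.5 to 17) than in myoid barcodes and the alpha subunit 2.67-fold higher (2.43 to 2.94). Pde5a and Pde3a break down cyclic nucleotides. Pde5a was 271 CPM with 4 or more markers and 263 with 2, against 208 in myoid barcodes. Pde3a was 238 and 219.5 CPM, against 53.4, and reached 657 CPM in the Slc22a3 cluster. Ace, which makes angiotensin II, was lower with many markers, with 20.4 CPM with 4 or more markers and 154 with 2.

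Among the 22 listed ion channel and calcium genes outside the rule, 14 reached 20 CPM, and 6 were higher and 2 lower with 4 or more markers than in myoid barcodes (12.6% and 8.42% of all genes). Against 2 markers 6 were higher and 3 lower (11.1% and 8.11%). Ano1, a calcium-activated chloride channel that depolarises pericytes, was 314 CPM with 4 or more markers and 23.1 with 2, against 8.55 in myoid barcodes. Trpc6, a cation channel, was 114 and 7.35 CPM, against 1.35. Cacna1c, the pore of the main vascular calcium channel, was 89 and 38.9 CPM, against 14.2, whereas Cacna1d, a related pore, was 40.9 and 186 CPM, against 219.8. The KATP subunits of other tissues were all but missing: Kcnj11 had 1 UMI and Abcc8 had 0 in all 429 barcodes. Kcnj8 and Abcc9, which are rule genes, had 542 and 1155. The 13233 other kept barcodes of the library held 1 UMI of Kcnj11 and 11 of Abcc8, so this lack was not particular to the selection. Gja4, connexin 37, and Gjc1, connexin 45, form gap junctions. Gja4 (chromosome 4, 127311421 to 127314039) was 813 CPM with 4 or more markers and 78.8 with 2, against 14.8 in myoid and 89.5 in endothelial barcodes, and Gjc1 362 and 139 CPM, against 118.

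Basement membrane genes were shared out between the contractile types. Of 25 listed, 20 reached 20 CPM, and 12 were higher and 6 lower with 4 or more markers than in myoid barcodes (12.6% and 8.42% of all genes). The sum of the list was 5683, 5753 and 12412 CPM with 2, 3 and 4 or more markers, against 6499 in myoid barcodes. It was 15309 CPM in the pericyte-like cluster, 7544 in the Hhip cluster and 2971 in the Slc22a3 cluster. The collagen IV chains differed by kind. Col4a1 and Col4a2, the chains of every vessel, were 2639 and 1945 CPM with 4 or more markers and 554 and 377 CPM with 2, against 609 and 396 in myoid barcodes. Col4a3 and Col4a4 were 117 and 465 CPM with 4 or more markers and 145 and 1239 CPM with 2, against 263 and 1830.3. Col18a1, the source of endostatin, was 487 and 64.1 CPM, against 15, and Lamc3, a laminin chain, 219 and 505 CPM, against 729.9. Sparc, a matrix binding protein, was 4079.5 and 1228 CPM, against 1103 in myoid and 7889.9 in endothelial barcodes.

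Of the 23 interstitial matrix genes, 5 were higher and 4 lower with 4 or more markers than in myoid barcodes (12.6% and 8.42% of all genes), of 18 that reached 20 CPM. In all selected barcodes 2 were higher and 5 lower than in fibroblasts (13.8% and 5.32% of all genes). Col5a3, a minor collagen V chain, was 86.1 CPM with 4 or more markers and 1.05 with 2, against 0.75 in myoid and 16 in fibroblast barcodes. Postn, periostin, was 68.6 and 2.1 CPM, against 1.35. Mfap4, of the elastic microfibril, was 27.7 and 192 CPM, against 289. Cdh2, N-cadherin, and Cdh11, another cadherin, lay in different strata. Cdh2 was 175 CPM with 4 or more markers and at 0 UMIs with 2, against 2.55 in myoid barcodes, and Cdh11 was 10.2 and 78.8 CPM, against 111.

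In the Notch list, 6 of 18 genes outside the rule were higher and 0 lower with 4 or more markers than in myoid barcodes (12.6% and 8.42% of all genes), with 10 reaching 20 CPM. Heyl, a Notch target of mural cells, was 251 CPM with 4 or more markers and 55.7 with 2, against 39 in myoid barcodes. Nrarp, a target that damps the pathway, was 128 and 42 CPM, against 6.9, and 183 CPM in the Slc22a3 cluster. Jag1, a ligand, was 136 and 75.6 CPM, against 46.9. Rbpj, the effector whose core motif is shown above, was 78.8 and 73.5 CPM, against 48.7. Of the PDGF genes, Pdgfra, the receptor of interstitial cells, was 80.2 CPM with 4 or more markers and 408 with 2, 5.08-fold lower (3.82 to 6.86), against 343 in myoid barcodes. The ligand Pdgfa was 107 and 75.6 CPM, against 26.5.

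Angpt1 and Angpt2, ligands of the endothelial receptor Tie2, were 55.4 and 80.2 CPM with 4 or more markers and 16.8 and 14.7 CPM with 2, against 4.05 and 3.15 in myoid barcodes. Il34, a ligand of the macrophage receptor CSF1R, was 149 and 18.9 CPM, against 2.55 in myoid and 0.8 in fibroblast barcodes, whereas the other ligand, Csf1, was 80.2 and 138 CPM, against 128 and 255. In the TGF-beta and BMP list 20 of 22 genes reached 20 CPM. With 4 or more markers 6 were higher and 3 lower than in myoid barcodes (12.6% and 8.42% of all genes). Id4, an inhibitor of helix-loop-helix factors, was 123 CPM, against 46.6, and Id2, its relative, 286 CPM, against 956. Among 30 transcription factors 18 reached 20 CPM, and 8 were higher and 5 lower, beside the same shares of all genes. Ebf1 was 1214 CPM with 4 or more markers and 570.3 with 2, against 364 in myoid and 1412 in fibroblast barcodes. Tbx2 was 233 and 89.3 CPM, against 52.

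Some of the genes that most separated the barcodes with many markers from the myoid class were in no list. Emid1, a secreted matrix protein, was 329.7 CPM, against 0.75 CPM in myoid barcodes, and was found in 115 of the 429. Hsd11b1, the enzyme that regenerates active glucocorticoid, was 178 CPM, against 1 UMI in myoid barcodes, and was found in 49 of the 429. Adcyap1r1, the receptor of the peptide PACAP, was 187 CPM, against 2 UMIs in myoid barcodes. Ntm, neurotrimin, was 196 CPM, against 0 UMIs, 435-fold higher when 3 UMIs are taken as the floor of the class. Plxdc1, also called TEM7, was 225 CPM, against 0.75. Against barcodes with 2 markers, Mnd1, which is known for its role in meiotic recombination, was 156 CPM with 4 or more markers, against 2.1 CPM (2 UMIs) with 2, and was found in 70 selected barcodes.

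Against the rest of the library, the 25 genes of largest fold included Emid1, Cox4i2, Ndufa4l2, Aspn, Olfr558 and Gja4. Aspn, asporin, a small matrix proteoglycan, was 434 CPM in the selected barcodes, against 3.7 CPM in the rest, with UMIs in 246 of 429. Olfr558, an odorant receptor that vascular smooth muscle is known to use, was 129 CPM, against 1.35, in 131 barcodes. Sncg, gamma-synuclein, was 262 CPM, against 4.23, in 105. The genes lowest against the rest were macrophage genes, among them Cd74 with 3.8, against 222 CPM, and Lyz2 with 48, against 1496 CPM, and the C1q limit of the rule bears on them.

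Against fibroblasts, 988 of 7181 genes were higher (13.8%) and 382 lower (5.32%). All 24 contractile genes were higher, and Tagln was 3627 CPM, against 6.88. The lower genes included C3 of complement, with 7.6, against 104 CPM, and Fst, follistatin, with 13.8, against 153 CPM. Against endothelial barcodes, 1453 of 7788 genes were higher (18.7%) and 1110 lower (14.3%). Cldn5, the tight junction protein of endothelium, was 2.37 CPM, against 4225 CPM, and Vwf, von Willebrand factor, 1 UMI in all, against 520.2 CPM.

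Markers of other cells were measured in the selected barcodes too. The 8 endothelial markers outside the rule summed 183 CPM, 2 of them at 0, against 8117 in endothelial barcodes, and were 379 CPM with 4 or more markers and 63 with 2. Almost all of that was Esam, 225 CPM, and Emcn, 140.1 CPM, with 4 or more markers. The 5 Leydig genes outside the rule summed 563 CPM with 4 or more markers and 652 with 2, against 535 in myoid barcodes. The 8 fibroblast markers summed 1309 and 3359 CPM, against 14714 in fibroblasts, which were chosen on 5 of them, and were highest in the mixed cluster of 53 barcodes, at 6700.0 CPM. The 8 macrophage markers summed 111 CPM, against 19916 in macrophages, the 7 germ cell markers 5.7 CPM with 3 at 0, and the 4 mesothelial markers 0 UMIs, with 4 at 0. The 8 Sertoli markers summed 398 CPM with 1 at 0, the 5 Schwann cell markers 30.4 CPM with 3 at 0, the 5 mast cell markers 15.2 CPM with 3 at 0 and the 7 lymphocyte markers 0.475 CPM with 6 at 0. What part these transcripts have in the levels above was not tested.

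Nearly all globin UMIs came from 1 barcode, which held 1300 of the 1314 Hbb-bs UMIs, so no globin level is given for the group. Dividing cells were few: Mki67 had 46 UMIs in 6 barcodes, and 5 barcodes carried both Mki67 and Top2a. Of the 16 cell cycle genes 12 reached 20 CPM. With 4 or more markers 9 were higher and 0 lower than in myoid barcodes (12.6% and 8.42% of all genes). Few barcodes held these UMIs: 14 and 12 of the 46 of Mki67, and 18 and 15 of the 53 of Top2a, lay in the highest 2 barcodes for each gene, and their part in the count was not tested. The mixed cluster held 123 CPM of Mki67, against 2.16 CPM in the pericyte-like one. The early stress response list, which dissociation can raise, summed 22430.0 CPM with 4 or more markers and 30973 CPM with 2, against 25670.5 in myoid and 40427 in fibroblast barcodes. All 18 of its genes reached 20 CPM, and 0 were higher and 0 lower with 4 or more markers than in myoid barcodes (12.6% and 8.42% of all genes).

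Of the 17 steroid receptor and hormone reception genes, 0 were higher and 4 lower with 4 or more markers than in myoid barcodes (12.6% and 8.42% of all genes), with 12 reaching 20 CPM. Those lower included Insr, the insulin receptor, at 20.4 CPM, against 49.5, and Ptch1 and Gli1 of the hedgehog pathway, which are not steroid receptors. Nr3c1, the glucocorticoid receptor, was 222 CPM with 4 or more markers and 141 with 2, against 116 in myoid barcodes. In the list of the Tsc22d family and glucocorticoid targets, 12 of 13 genes reached 20 CPM. In the same comparison 0 were higher and 2 lower, beside the same shares of all genes. They were Fkbp5, a chaperone partner of the glucocorticoid receptor, at 73 CPM, against 160.1, and Mt2, a metallothionein, at 191 CPM, against 421, while Tsc22d1 was 654 CPM, against 548. Of 9 steroid synthesis genes outside the rule 0 were higher and 2 lower, of 18 chemokines and cytokines 2 and 2, of 16 integrin and junction genes 5 and 3, of 14 RGS genes outside the rule 2 and 2, and of 18 angiopoietin, VEGF and sphingosine genes 6 and 0, all against myoid barcodes, where 12.6% of all genes were higher and 8.42% lower. In the same order of lists, 7, 8, 11, 7 and 9 genes reached 20 CPM, which is the base of those shares. Of 24 growth factors of the testis niche, 10 reached 20 CPM, and 4 were higher and 4 lower, beside the same shares. Igf1, insulin-like growth factor 1, was 210.1 CPM with 4 or more markers and 715 with 2, against 597 in myoid and 1719 in fibroblast barcodes, and Igfbp7, which binds such factors, 4511 and 2225 CPM, against 2133 and 2586.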

How the data were processed

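Single-cell RNA was captured with Chromium 3′ v3.1 chemistry in 3 mouse libraries, 1 per group. The values deposited by the authors are raw UMI counts per gene and barcode. Per the submitters' processing notes, Cell Ranger 6, Seurat 4.2.1 and GRCm38.p6 were used, and the file headers name Cell Ranger 6.1.2 for both KO libraries and 4 for the chimera. The KO testis library held 18108 barcodes and 134795047 UMIs.

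Counts were filtered, selected by marker rule, summed per class and scaled to CPM. Folds are ratios of CPM, with a floor of 3 UMIs for a class at 0. Clusters were made with scanpy 1.11.5 and leidenalg 0.10.2 (2000 variable genes, 30 components, resolution 0.5), without the rule's genes. Doublets were scored by simulation and kept in the main values. The calculation of folds, their intervals and the 2-fold cut was tested on simulated counts. The members and lists were chosen with earlier results of these data known. Named genes were the largest folds with at least 100 CPM in the higher class (25 higher and 12 lower against the rest, 12 each way against myoid barcodes and, added after seeing the data, between numbers of markers, 8 each way against the others), beside members of the lists. Positions come from GENCODE M21 (26090 of 26124 gene IDs found). Alternatives varied the marker rule, filters, levels and doublets. Some listed genes are not reported here.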

Additional observations from a re-analysis of the deposited data

How the results depend on the processing

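No paired analysis was possible because each group is 1 library. Asking for 3 or more markers left 244 barcodes, with 400 genes lower than in myoid barcodes. Asking for 4 or more, an alternative chosen after seeing the data, left 151, with 940 genes higher and 628 lower than in myoid barcodes and 632 lower than in fibroblasts. At least 5 marker UMIs left 242 barcodes. With a lowest level of 50 CPM, 750 genes were higher and 485 lower than in the rest, 259 and 82 than in myoid, 568 and 239 than in fibroblast and 826 and 692 than in endothelial barcodes. With no lowest level the counts were 6130 and 2030, 1924 and 686, 2714 and 1101, and 2917 and 2109 in the same order. Without thinning, 53.8% of the selected barcodes carried a Pdgfrb UMI, 42.7% an Ndufa4l2 UMI and 70.6% an Acta2 UMI. Of 651 values for 93 folds of 72 named genes under the 7 alternatives that can alter a fold, 465 stayed within their counting interval, 186 moved beyond it and 0 changed direction. Asking for 3 or more markers moved 47 of the 93 folds and for 4 or more 50. The causes were not tested. With 1 library, replicate spread is unknown, and genes with few UMIs carry wide intervals.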
